A study of Mus musculus with 11 samples.

Results

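Interferon response and viral RNA sensing genes were followed to ask whether the activation of transposable elements (TEs) in mutant mouse testes came with an interferon response. They were 10 of the 33188 genes in the count tables, namely *Ddx58*, *Ifih1*, *Zbp1*, *Irf7*, *Ifit1*, *Ifit3*, *Isg15*, *Oasl2*, *Rsad2* and *Bst2*. They were found by symbol in the tables, and all 10 were present and passed the filter on low counts. The libraries came from whole testes of mice at postnatal day 5 (P5), so germ cells and the somatic cells around them were sequenced together. Wild-type (WT) mice gave 2 libraries, and 3 libraries came from each mutant. Dnmt3C KO mice lacked the germline DNA methyltransferase DNMT3C on both alleles (Dnmt3C KO/KO). Nrf1 cKO mice carried 1 floxed and 1 deleted allele of *Nrf1*, a transcription factor gene, with a Ddx4-Cre transgene that deletes the floxed allele in germ cells before birth, so that somatic cells kept 1 allele (the labels write Nrf1KO/KO). The dKO mice combined both defects. All were on a C57Bl6/J background, and controls were littermates where possible. The labels name germ cells and somatic cells as the source, and they do not say how many animals went into a library, so p-values measure the spread between these libraries.

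Cells recognise viral RNA with sensors in the cytoplasm. RIG-I, encoded by *Ddx58*, and MDA5, encoded by *Ifih1*, bind double-stranded RNA and signal through the adaptor MAVS, while ZBP1 binds nucleic acids in the Z conformation and can start cell death. The signal turns on interferon genes, and secreted interferon acts through its receptor on a large group of genes with an interferon-stimulated response element (ISRE) in their promoters. Transcripts of endogenous retroviruses and LINE1 elements can form double-stranded RNA and have been described as triggers of this pathway in cells that lose DNA methylation.

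Libraries held from 26063590 to 39365841 counts. Gene totals of *Dnmt3c* did not separate the genotypes (3.02 to 4.94 CPM, counts scaled to library size, in the 6 Dnmt3C-deficient libraries against 3.86 to 4.87 CPM in the other 5), nor did those of *Nrf1* (52.2 to 60.8 CPM with and 45.0 to 58.0 CPM without the deletion), so these totals are no check of the labels and genotypes are named as labelled. The retrovirus subfamily MMERVK10C-int separated the Dnmt3C-deficient libraries from the others, as given further on, and does not check the *Nrf1* labels. Germ cell markers summed to 502 and 634 CPM in WT, 508 to 856 CPM in Dnmt3C KO, 238 to 385 CPM in Nrf1 cKO and 279 to 535 CPM in dKO libraries. In such bulk samples, fewer cells of a type and less RNA per cell cannot be told apart. A change confined to germ cells could be diluted by RNA of the other cells, so the values below are those of the whole testis. The paper names such background RNA as the likely reason why LINE1 upregulation, seen in its sorted spermatogonia, was absent here in Dnmt3C KO. One library stood apart in the interferon genes: WT replicate 2 was the highest of the 11 libraries for 8 of the 10 genes. Log2 fold changes of the 10 genes that rest on WT are therefore mostly given with and without it.

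None of the 10 genes differed between genotypes at an adjusted p under 0.01 (edgeR quasi-likelihood test with Benjamini-Hochberg adjustment over all genes and TE subfamilies). This held for the 5 pairwise comparisons, for the loss of Dnmt3C and the deletion of Nrf1 over both backgrounds, for their interaction and for the 4 genotypes in 1 test, and DESeq2, which called 0 to 127 features in these comparisons, called none of the 10 either. Few features passed with edgeR: 0% of them in each pairwise comparison, in the interaction and in the 4-genotype test, and 0.00443% in each of the other 2 comparisons. The loss of Dnmt3C over both Nrf1 backgrounds used all 11 libraries and is the main comparison below. In it 2 of the 10 genes had a log2 fold change above 0 and 8 below, with a median of -0.10, against a median of -0.01 over all genes tested. At an unadjusted p under 0.05, 0 of the 10 passed in either direction, while 1.9% of all features passed as higher and 0.996% as lower. Without WT replicate 2, 8 of the 10 lay above 0 with a median of 0.23, and again 0 of 10 passed at an unadjusted p under 0.05, where 2.43% of features were higher and 1.11% lower. The sign of the median thus depended on that library. The median was -0.23 without WT replicate 1, and -0.32 with all 10 below 0 without Dnmt3C KO replicate 3.

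**Figure D1:**
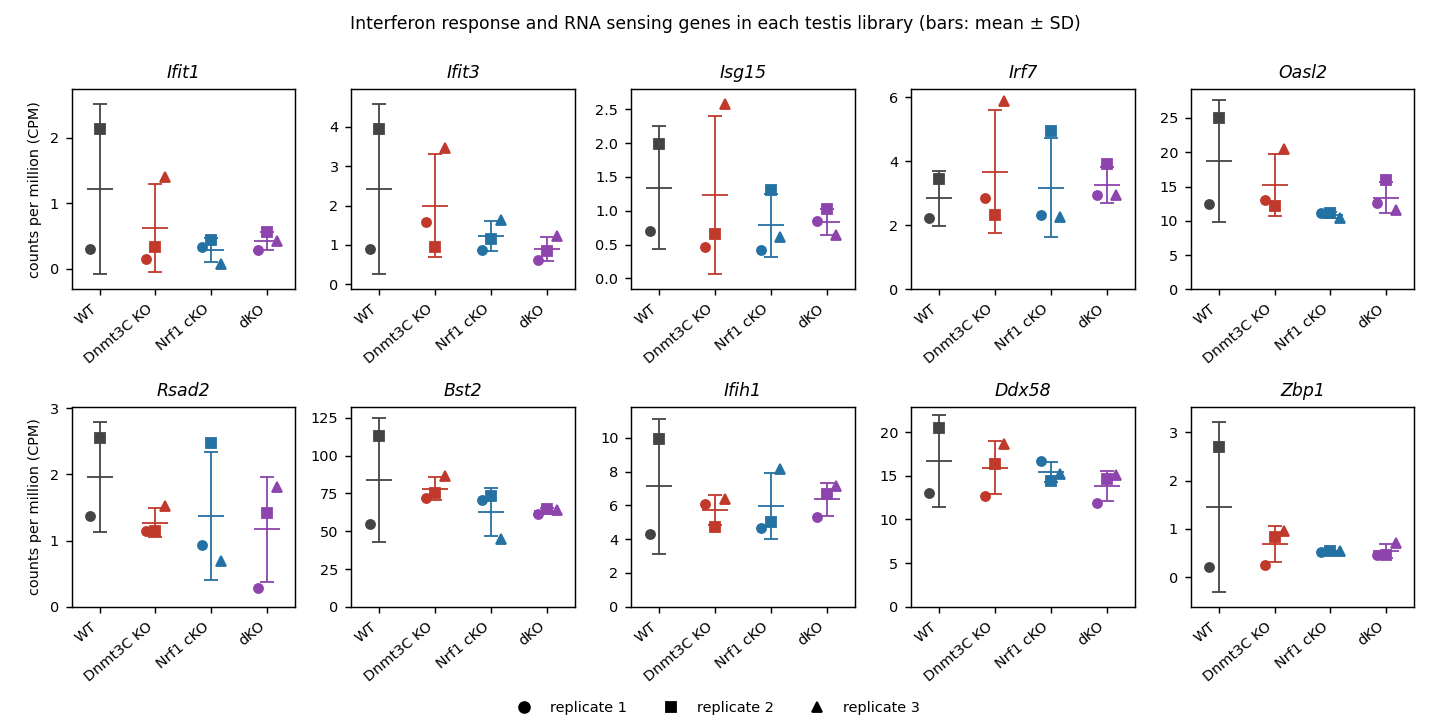
CPM of each of the 10 genes in each library, by genotype (symbols mark the replicate number, bars the mean ± SD of 2 WT or 3 mutant libraries). WT replicate 2 is the highest point for 8 genes and Dnmt3C KO replicate 3 for *Isg15* and *Irf7*.

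Among the RNA sensors, *Ddx58* (chr4:40203773-40239828, minus strand, GRCm38) stood at 13.01 and 20.4 CPM in WT, 12.7, 16.4 and 18.6 CPM in Dnmt3C KO, 16.7, 14.5 and 15.2 CPM in Nrf1 cKO, and 11.8, 14.6 and 15.1 CPM in dKO libraries. All genotypes overlapped, with WT replicate 2 the highest and dKO replicate 1 the lowest library. With the loss of Dnmt3C its log2 fold change was -0.12 ± 0.14 (SE, 95% interval -0.43 to 0.19), and it was -0.01 without WT replicate 2. *Ifih1* (chr2:62595798-62646255, minus strand) had 4.29 and 9.95 CPM in WT, 6.09, 4.70 and 6.35 CPM in Dnmt3C KO, 4.64, 5.03 and 8.17 CPM in Nrf1 cKO and 5.29, 6.64 and 7.15 CPM in dKO. The 2 WT libraries thus enclosed every mutant library. Its log2 fold change with Dnmt3C loss was -0.09 ± 0.23 (SE, 95% interval -0.58 to 0.40), and 0.20 without WT replicate 2.

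*Zbp1* (chr2:173206612-173218923, minus strand) was measured from 8 to 90 reads per library, and counting error weighs on it. Its levels were 0.216 and 2.71 CPM in WT, 0.259, 0.839 and 0.953 CPM in Dnmt3C KO, 0.516, 0.544 and 0.542 CPM in Nrf1 cKO, and 0.450, 0.463 and 0.703 CPM in dKO. The lowest and the highest library of all were both WT. The log2 fold change with Dnmt3C loss was -0.52 ± 0.52 (SE, 95% interval -1.63 to 0.59), and it turned to 0.47 without WT replicate 2. Between dKO and Nrf1 cKO, a comparison without WT, it was 0.01 ± 0.43 (SE).

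*Irf7* (chr7:141262706-141266481, minus strand) encodes the transcription factor that amplifies interferon production and is itself induced by interferon. It had 2.24 and 3.46 CPM in WT, 2.84, 2.31 and 5.88 CPM in Dnmt3C KO, 2.34, 4.95 and 2.25 CPM in Nrf1 cKO, and 2.95, 3.92 and 2.93 CPM in dKO. The highest values came from 1 library each of Dnmt3C KO and Nrf1 cKO, while the rest of those groups lay in the range of WT. It was 1 of the 2 genes above 0 with Dnmt3C loss, at 0.18 ± 0.29 (SE, 95% interval -0.44 to 0.80). This value fell to -0.04 when Dnmt3C KO replicate 3 was left out and rose to 0.44 when Nrf1 cKO replicate 2 was left out. In Dnmt3C KO against WT *Irf7* was at 0.37 with all libraries and at 0.72 without WT replicate 2.

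The other 6 genes are effectors that interferon induces. Bases upstream of the RefSeq start sites (GRCm38.p6) are shown for the 5 of them in which the core of the ISRE was found, written GAAANNGAAA and searched on both strands, since this element is what an interferon signal would act on. The 180 bases before the start site of *Isg15* are chr4:156200819-156200998 (minus strand), those of *Ifit1* chr19:34640709-34640888 (plus), of *Ifit3* chr19:34583349-34583528 (plus), of *Rsad2* chr12:26456453-26456632 (minus) and of *Bst2* chr8:71537473-71537652 (minus), each given 5′ to 3′ on the strand of the gene with matches on either strand in capitals, where overlapping matches run together:
Isg15: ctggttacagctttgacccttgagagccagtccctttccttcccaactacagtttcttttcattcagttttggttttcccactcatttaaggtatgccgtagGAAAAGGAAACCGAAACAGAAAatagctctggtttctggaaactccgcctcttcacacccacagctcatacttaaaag
Ifit1: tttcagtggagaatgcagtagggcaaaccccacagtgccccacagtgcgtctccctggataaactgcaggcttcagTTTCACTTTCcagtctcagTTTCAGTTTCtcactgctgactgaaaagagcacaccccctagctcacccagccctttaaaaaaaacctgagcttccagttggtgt
Ifit3: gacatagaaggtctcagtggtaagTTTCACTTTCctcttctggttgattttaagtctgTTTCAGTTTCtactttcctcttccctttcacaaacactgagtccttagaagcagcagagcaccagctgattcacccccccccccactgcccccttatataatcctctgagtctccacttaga
Rsad2: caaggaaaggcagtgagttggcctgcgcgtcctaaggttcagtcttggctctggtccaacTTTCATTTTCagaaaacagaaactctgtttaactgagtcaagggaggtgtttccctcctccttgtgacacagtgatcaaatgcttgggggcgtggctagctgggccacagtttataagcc
Bst2: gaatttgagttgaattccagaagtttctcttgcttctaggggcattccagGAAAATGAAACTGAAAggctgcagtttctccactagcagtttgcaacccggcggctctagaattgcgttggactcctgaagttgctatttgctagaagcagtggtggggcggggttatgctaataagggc

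Promoter sequences of 300 bases (250 before and 50 after the start) were found for 9 of the 10 genes. The ISRE core lay before the start in 5 of these 9, with 3 overlapping matches in *Isg15*, 2 in each of *Ifit1*, *Ifit3* and *Bst2* (overlapping in *Bst2*) and 1 in *Rsad2*. In *Ifih1* and *Ddx58* the only match touched or followed the start, and *Irf7* and *Oasl2* had no match in this window. Of all 32851 promoters in the table, 2.98% held a match before the start and 3.44% anywhere in the window. A match describes the letters only.

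*Ifit1* (chr19:34640871-34650009, plus strand) and *Ifit3* (chr19:34583531-34588731, plus strand) encode proteins of 1 family, of which IFIT1 binds foreign RNA and blocks its translation. *Ifit1* rested on 2 to 71 reads per library and had 0.297 and 2.13 CPM in WT, 0.144, 0.331 and 1.40 CPM in Dnmt3C KO, 0.334, 0.435 and 0.0774 CPM in Nrf1 cKO, and 0.281, 0.556 and 0.428 CPM in dKO. Outside WT replicate 2 and Dnmt3C KO replicate 3, every library was at or under 0.556 CPM. Its log2 fold change with Dnmt3C loss was -0.23 ± 0.64 (SE, 95% interval -1.59 to 1.13), and 0.70 without WT replicate 2. *Ifit3* had 0.891 and 3.94 CPM in WT, 1.58, 0.941 and 3.46 CPM in Dnmt3C KO, 0.880, 1.14 and 1.63 CPM in Nrf1 cKO, and 0.619, 0.834 and 1.22 CPM in dKO. The same 2 libraries stood out, and dKO replicates 1 and 2 were the lowest of all 11. The log2 fold change with Dnmt3C loss was -0.36 ± 0.40 (SE, 95% interval -1.23 to 0.50), and 0.04 without WT replicate 2. *Ifit3* has a close copy in the mouse, *Ifit3b*, and reads that fit several places were kept in the counts (TEtranscripts in its multi mode), so its level is uncertain by the reads that both genes share.

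*Isg15* (chr4:156199424-156200818, minus strand) encodes a ubiquitin-like protein that is joined to other proteins after interferon. It had 0.702 and 1.98 CPM in WT, 0.460, 0.661 and 2.57 CPM in Dnmt3C KO, 0.425, 1.31 and 0.620 CPM in Nrf1 cKO, and 0.844, 1.02 and 0.642 CPM in dKO. Dnmt3C KO replicate 3 was the highest library and the other 2 of that genotype lay below WT replicate 1. The log2 fold change with Dnmt3C loss was -0.02 ± 0.46 (SE, 95% interval -0.997 to 0.96), and 0.32 without WT replicate 2. *Rsad2* (chr12:26442746-26456452, minus strand) encodes viperin, an enzyme that makes a chain-terminating nucleotide. Its levels were 1.38 and 2.56 CPM in WT, 1.15, 1.14 and 1.52 CPM in Dnmt3C KO, 0.941, 2.48 and 0.697 CPM in Nrf1 cKO, and 0.281, 1.42 and 1.80 CPM in dKO. The dKO libraries spanned the widest range of the mutants on a fold scale. The log2 fold change with Dnmt3C loss was -0.42 ± 0.42 (SE, 95% interval -1.32 to 0.47), and -0.21 without WT replicate 2, while leaving out dKO replicate 3 gave -0.67 and leaving out Nrf1 cKO replicate 2 gave -0.11.

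*Oasl2* (chr5:114896936-114912234, plus strand) belongs to the oligoadenylate synthetase family that senses double-stranded RNA. It had 12.4 and 25.01 CPM in WT, 13.1, 12.2 and 20.5 CPM in Dnmt3C KO, 11.1, 11.1 and 10.3 CPM in Nrf1 cKO, and 12.5, 15.9 and 11.6 CPM in dKO. The 3 Nrf1 cKO libraries were the lowest of all 11. Its log2 fold change with Dnmt3C loss was 0.03 ± 0.20 (SE, 95% interval -0.40 to 0.46), and 0.30 without WT replicate 2. *Bst2* (chr8:71534255-71537456, minus strand) encodes tetherin, which holds budding retroviruses at the cell surface. It had 55.0 and 113 CPM in WT, 72.1, 75.3 and 86.7 CPM in Dnmt3C KO, 70.8, 73.3 and 44.8 CPM in Nrf1 cKO, and 61.2, 64.8 and 63.9 CPM in dKO. The WT libraries again enclosed all but the lowest library. With Dnmt3C loss its log2 fold change was -0.04 ± 0.17 (SE, 95% interval -0.40 to 0.31), and 0.17 without WT replicate 2.

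**Figure D2:**
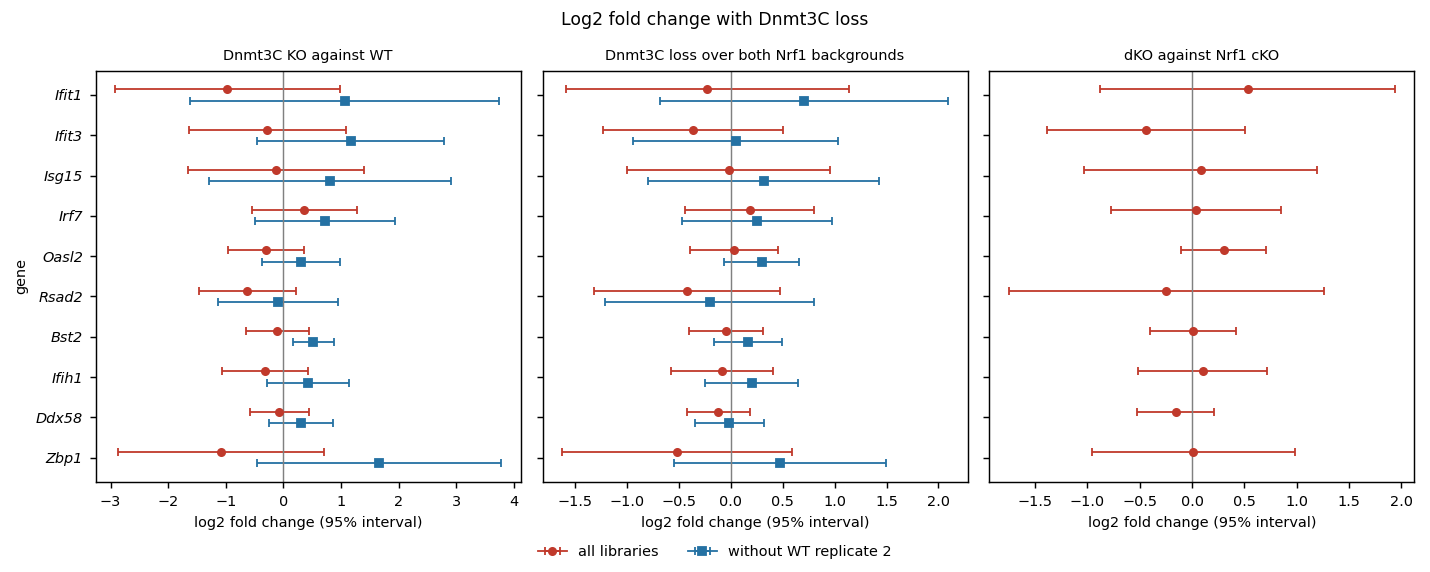
Log2 fold change of each gene with its 95% interval (edgeR) for Dnmt3C KO against WT, for Dnmt3C loss over both Nrf1 backgrounds and for dKO against Nrf1 cKO, with all libraries (circles) and without WT replicate 2 (squares, not part of dKO against Nrf1 cKO). Without WT replicate 2 the values moved to the right, and 9 of 10 were above 0 for Dnmt3C KO against WT, of which the interval of *Bst2* excluded 0.

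In the comparison of Dnmt3C KO with WT alone, 9 of the 10 genes were below 0. They ran from -1.08 ± 0.81 (SE) for *Zbp1* to -0.07 ± 0.23 (SE) for *Ddx58*, and *Irf7* was at 0.37 ± 0.41 (SE). Without WT replicate 2, *Zbp1*, *Ddx58* and *Irf7* stood at 1.66, 0.31 and 0.72. With all libraries the median was -0.29, against 0.01 over all genes. At an unadjusted p under 0.05, 0 of 10 passed, where 2.56% of features were higher and 2.86% lower. In 0 of 10 were the genotypes free of overlap, against 21.3% of all features. Without WT replicate 1 the median was -0.75 and 5 of 10 were lower at an unadjusted p under 0.05 (824 of 22851 features), and without Dnmt3C KO replicate 3 it was -0.67 and 2 were lower (482 of 21336 features). With all libraries the 6 red blood cell markers and the 3 neutrophil markers tested were lower at an unadjusted p under 0.05, with medians of -1.24 and -3.42, while 10 of 11 macrophage markers were above 0 with a median of 0.46, and the part of these cells was not tested. Without WT replicate 2, 9 of the 10 were above 0 with a median of 0.62, and 1 passed as higher at an unadjusted p under 0.05, where 6.71% of features were higher and 4.54% lower. That gene was *Bst2*, at 0.52 ± 0.15 (SE, edgeR adjusted p = 0.33). Macrophage marker sums were 241 to 269 CPM in Dnmt3C KO and 176 CPM in the remaining WT library, and their part in this value was not tested. The 1 WT library left was taken to vary as the 3 Dnmt3C KO libraries did. With Dnmt3C KO replicate 3 also left out, an alternative chosen after seeing the data, the median was 0.20 and 7 of 10 were above 0, with *Bst2* at 0.44 (edgeR adjusted p = 0.50).

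The comparison of dKO with Nrf1 cKO does not involve WT. Here 7 of the 10 genes were above 0 and 3 below, with a median of 0.03, against -0.02 over all genes. The median was -0.07 with 3 genes above 0 without Nrf1 cKO replicate 1. It was -0.11 with 4 above 0 without Nrf1 cKO replicate 3, and -0.03 with 5 above 0 without dKO replicate 2. It rose to 0.23 with 7 above 0 without Nrf1 cKO replicate 2, and to 0.11 with 8 above 0 without dKO replicate 1. The values ran from -0.44 ± 0.42 (SE) for *Ifit3* to 0.53 ± 0.63 (SE) for *Ifit1*. With 1 library left out at a time, *Ifit3* lay between -0.73 (without dKO replicate 3) and -0.18 (without Nrf1 cKO replicate 3), and *Ifit1* between 0.13 (without Nrf1 cKO replicate 3) and 0.98 (without Nrf1 cKO replicate 2). In 0 of 10 was the unadjusted p under 0.05, where 1.94% of features were higher and 0.868% lower. *Oasl2* was higher in every dKO library than in every Nrf1 cKO library (10.8 ± 0.427 CPM in Nrf1 cKO and 13.3 ± 2.27 CPM in dKO, SD, n = 3 each), with a log2 fold change of 0.30 ± 0.18 (SE, 95% interval -0.10 to 0.71). With 1 library left out at a time this value lay between 0.17 (without dKO replicate 2) and 0.39 (without dKO replicate 3). *Oasl2* was 1 gene of 10 without overlap, against 7.43% of all features. For the sensors the intervals were -0.52 to 0.21 for *Ddx58*, -0.51 to 0.71 for *Ifih1* and -0.96 to 0.98 for *Zbp1*.

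The interaction, which asks whether the change with Dnmt3C loss differed between the Nrf1 backgrounds, had a median of 0.29 over the 10 genes, and 0 of 10 passed at an unadjusted p under 0.05, where 3.68% of features were higher and 1.87% lower. Its median was -0.52 with all 10 below 0 without WT replicate 2. It was 0.75 without WT replicate 1 and 0.51, with all 10 above 0, without Dnmt3C KO replicate 3, and in each of these fits 2 of 10 were higher at an unadjusted p under 0.05 (743 of 23841 and 710 of 22457 features). In the test over the 4 genotypes 0 of 10 passed at an unadjusted p under 0.05, against 6.06% of features. The count was also 0 of 10 without WT replicate 2, and 5 of 10 without WT replicate 1 (1906 of 23841 features). With all libraries the smallest p of the 10 was that of *Oasl2* (edgeR adjusted p = 0.88).

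Nrf1 deletion was followed as the other factor, and comparisons that share WT or Dnmt3C KO libraries are given side by side. Over both Dnmt3C backgrounds all 10 genes were below 0, with a median of -0.41 against 0.01 over all genes, and 2 of 10 had an unadjusted p under 0.05 as lower, against 4.32% of features. These were *Ifit3*, at -1.08 ± 0.40 (SE, edgeR adjusted p = 0.55), and *Oasl2*, at -0.46 ± 0.20 (SE, edgeR adjusted p = 0.60). Without WT replicate 2 they stood at -0.69 and -0.19, the median was -0.11 and 7 of 10 were below 0. At an unadjusted p under 0.05, 0 of 10 passed without WT replicate 2 or without Dnmt3C KO replicate 3, and 5 passed as lower without WT replicate 1 (1431 of 23841 features) or without Dnmt3C KO replicate 1 (752 of 22388 features). Germ cell markers were lower as well, 12 of 18 at an unadjusted p under 0.05 and 17 of 18 below 0, with a median of -0.85, and in Nrf1 cKO against WT 13 of 18 were lower. For Nrf1 deletion over both backgrounds the 10 Sertoli cell markers were above 0 (median 0.31) and the 6 red blood cell markers below 0 (median -0.59). In Nrf1 cKO against WT the 6 red blood cell markers (median -0.85) and the 3 neutrophil markers tested (median -0.33) were below 0. The 7 endothelial cell markers were above 0 there (median 0.50). The part of all these cells in the values of the interferon genes was not tested. Against WT, Nrf1 cKO had a median of -0.63, and 2 genes passed as lower at an unadjusted p under 0.05, against 4.22% of features: *Ifit1*, at -2.04 ± 0.83 (SE), and *Oasl2*, at -0.79 ± 0.28 (SE). Every Nrf1 cKO library was below every WT library for *Oasl2* and for none of the other 9, against 21.3% of all features without overlap. Without WT replicate 2 the values were -0.05 for *Ifit1* and -0.21 for *Oasl2*, and the median was 0.22 with 8 of 10 above 0. Without WT replicate 1 the median was -1.03 with all 10 below 0. The 1 WT library left in each of these fits was taken to vary as the Nrf1 cKO libraries did. Against WT, dKO had a median of -0.59, and 1 gene passed as lower, against 1.19% of features. This was *Ifit3*, at -1.43 ± 0.59 (SE), which came to 0.00 without WT replicate 2, where the median was 0.23 with 9 of 10 above 0. Without WT replicate 1 the median was -1.03 with all 10 below 0, and here too 1 WT library was left. With all libraries the 6 red blood cell markers were lower at an unadjusted p under 0.05 in dKO against WT, with a median of -1.62. The 3 neutrophil markers tested were below 0, with a median of -1.29. Their part in these values was not tested. At an unadjusted p under 0.05, 0 of 10 passed without WT replicate 2, dKO replicate 1 or dKO replicate 2.

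Against Dnmt3C KO, dKO had 9 of 10 genes below 0 and a median of -0.25. At an unadjusted p under 0.05, 2 passed as lower, against 4.08% of features: *Ifit3*, at -1.16 ± 0.50 (SE), and *Bst2*, at -0.30 ± 0.11 (SE, edgeR adjusted p = 0.68). *Bst2* was lower in every dKO library (63.3 ± 1.84 CPM, SD, n = 3) than in every Dnmt3C KO library (78.0 ± 7.64 CPM, SD, n = 3), 1 gene of 10 without overlap against 13.6% of all features. Without Dnmt3C KO replicate 3 the median was 0.05, *Ifit3* stood at -0.50 and *Bst2* at -0.22, and 0 of 10 passed at an unadjusted p under 0.05, as in the single fit of the 4 genotypes. Of the germ cell markers 17 of 18 were below 0 in this comparison, with a median of -0.60. All 10 macrophage markers tested were below 0 as well, with a median of -0.50 and sums of 112 to 288 CPM in dKO against 241 to 269 CPM in Dnmt3C KO, and so were the 6 peritubular cell markers, with a median of -0.32. The 2 neutrophil markers tested were above 0, with a median of 2.08, as were 7 of 10 Sertoli cell markers, with a median of 0.21. The part of these cells in the values was not tested.

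Few reads of interferon ligands were found. Of 21 ligand genes looked up, 3 had values: *Ifng*, with 11 reads over all 11 libraries, *Ifnl3*, with 4, and *Ifnab*, with 2. No library had more than 3 reads of any of them. The others, *Ifnb1* among them, were not analysed here. In a library with no reads of a gene, the count of 0 allows up to 3 counts, or 0.0762 CPM in the deepest and 0.115 CPM in the shallowest library. The genes that carry the signal onward were well covered. The receptor gene *Ifnar1* had 107 to 138 CPM and the log2 fold change with Dnmt3C loss was -0.03 ± 0.085 (SE), while the adaptor gene *Mavs* had 40.9 to 69.8 CPM and a value of -0.01 ± 0.12 (SE). The transcription factor gene *Irf9* was at -0.06 ± 0.17 (SE), the kinase gene *Eif2ak2*, whose protein PKR is turned on by double-stranded RNA, at -0.11 ± 0.13 (SE), and *Adar*, whose product edits double-stranded RNA, at 0.04 ± 0.11 (SE). *Irf9* stood at 0.14 and *Eif2ak2* at 0.04 without WT replicate 2.

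A wider set of lists held 152 interferon pathway genes, the 10 included, of which 133 were in the tables and 129 were tested for Dnmt3C loss over both backgrounds. None of the 129 passed at an adjusted p under 0.01 with edgeR or DESeq2, and at an unadjusted p under 0.05 the numbers were 2 higher and 0 lower, where 1.9% of all features were higher and 0.996% lower. At that p 7 of 129 were lower without dKO replicate 3 (339 of 22512 features). Without Nrf1 cKO replicate 1, 5 of 128 were lower (207 of 22470 features). In Dnmt3C KO against WT, 1 of 129 was higher and 11 were lower, where 2.56% of features were higher and 2.86% lower. The median was -0.13 in that comparison, and 0.19 without WT replicate 2. For Dnmt3C loss over both backgrounds the median of the 129 was -0.05, and 0.04 without WT replicate 2. By role, and with all libraries, the medians were -0.11 for 14 sensors, -0.02 for 12 adaptors and kinases, 0.00 for 12 transcription factors, -0.14 for 63 effectors, 0.02 for 16 genes that restrict retroelements, -0.03 for 9 receptors and kinases and -0.02 for 9 negative regulators. The 3 highest of the genes outside the 10 were *Phf11b*, at 0.96 ± 0.44 (SE), *Ripk3*, a kinase gene in the cell death pathway downstream of ZBP1, at 0.35 ± 0.12 (SE), and *Ifi27l2a*, at 0.35 ± 0.27 (SE), and the adjusted p was 1.0 for each with edgeR. They stood at 1.30, 0.33 and 0.63 without WT replicate 2. *Ripk3* had 15.8, 15.7 and 15.8 CPM in Dnmt3C KO against 10.6 and 11.4 CPM in WT, while dKO (12.1, 13.2 and 11.4 CPM) overlapped with Nrf1 cKO (8.99, 11.5 and 11.2 CPM). The 3 lowest were *Iigp1*, an interferon-induced GTPase gene, at -0.93 ± 0.71 (SE), and the immunoproteasome genes *Psmb9*, at -0.83 ± 0.44 (SE), and *Psmb8*, at -0.82 ± 0.41 (SE). Without WT replicate 2 they stood at 0.82, 0.03 and 0.02. In that library *Iigp1* had 42.1 CPM against 0.837 CPM in WT replicate 1 and 1.73 to 8.86 CPM in the mutants.

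WT replicate 2 was the highest library for 62 of the 129 genes (48.1%), where it was the highest for 12.0% of all 21690 genes that passed the filter. Among the genes outside the 10 this was 54 of 119. It was the highest for 43 of 63 effectors and 7 of 14 sensors, but for 1 of 9 receptor and kinase genes. *B2m*, which encodes the shared chain of MHC class I, had 539 CPM there and 89.1 to 156 CPM in the other libraries, and *H2-K1* had 178 CPM against 21.6 to 51.5 CPM. Dnmt3C KO replicate 3 was second for 36 of the 129 genes and 1962 of the 21690, and highest for 10 of the 129 (7.75%) and 6.38% of the 21690. The 5 genes outside the 10 whose log2 CPM followed the mean z-score of the 10 most closely over the 11 libraries were *Parp9* (Pearson r of 0.95), *Lgals3bp* (0.93), *Rtp4* (0.91), *Iigp1* (0.91) and *Irgm1* (0.91), all of them on the interferon lists. They share the libraries and their depth with the 10, and each was highest in WT replicate 2. Within the 10, the r of each gene with the mean of the other 9 ran from 0.52 for *Ifih1* to 0.87 for *Ifit1*.

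**Figure D3:**
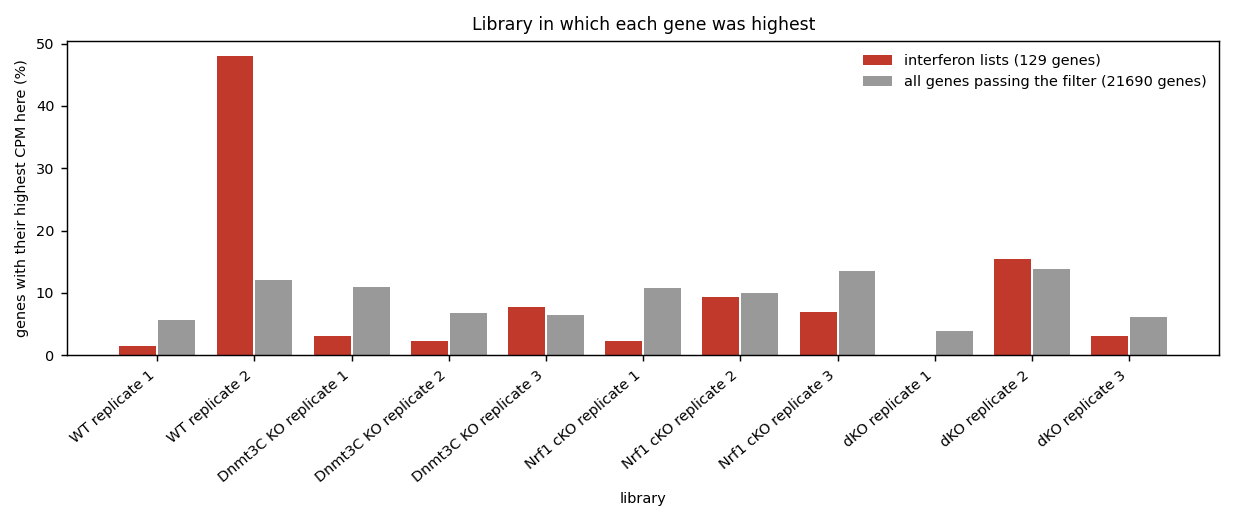
Share of genes (%) whose CPM was highest in each library, for the 129 interferon pathway genes tested (red) and for all 21690 genes that passed the filter (grey). WT replicate 2 holds 48.1% of the interferon genes and 12.0% of all genes.

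Markers of other cells were set beside these levels. The 11 macrophage markers summed to 212 CPM in WT replicate 2 and 176 CPM in WT replicate 1, within the 112 to 288 CPM of the mutants, and none was at 0 in either. The 9 T and NK cell markers summed to 16.0 CPM in WT replicate 2, 16.9 CPM in Nrf1 cKO replicate 2 and 8.29 to 12.0 CPM elsewhere. The 6 markers of plasmacytoid dendritic cells, which are known for interferon production, summed to 231 CPM in WT replicate 2, the highest of the 11 libraries, to 166 CPM in WT replicate 1 and to 153 to 204 CPM in the mutants. This list holds *Bst2*, one of the 10 genes, with 113 CPM in WT replicate 2, and *Tcf4*, with 117 CPM there and 93.7 to 128 CPM in the other libraries. *Siglech*, the marker of the list that was at 0 in WT replicate 2, had at most 0.163 CPM in any library. The 6 red blood cell markers summed to 2129 CPM in WT replicate 2 and 1775 CPM in Nrf1 cKO replicate 2, against 261 to 790.0 CPM in the others. The 6 neutrophil markers summed to 13.05 CPM in WT replicate 2, 17.8 CPM in Nrf1 cKO replicate 1, 14.5 CPM in dKO replicate 3 and 0.316 to 5.59 CPM in the others, with the 3 Dnmt3C KO libraries at 1.73 CPM or less. With Dnmt3C loss, 6 of 18 germ cell markers were higher at an unadjusted p under 0.05, and 3 of 6 red blood cell and 2 of 3 tested neutrophil markers were lower, against 1.9% of all features as higher and 0.996% as lower. The 7 endothelial cell markers were below 0, with a median of -0.37 and 1 lower at that p. Of the 9 T and NK cell markers 8 were below 0, with a median of -0.28 and 1 lower at that p. The part of these cells in the levels of the interferon genes was not tested.

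TE transcripts gave the measure of activation. MMERVK10C-int, the internal part of an endogenous retrovirus, had 84.0 and 81.8 CPM in WT, 402, 189 and 240.5 CPM in Dnmt3C KO, 33.8, 53.6 and 51.6 CPM in Nrf1 cKO, and 303, 212 and 165 CPM in dKO. Every Dnmt3C-deficient library was above every other library, and the log2 fold change with Dnmt3C loss was 2.04 ± 0.22 (SE, edgeR adjusted p = 0.00457). It was the 1 feature called in that comparison, and no feature passed when WT replicate 1, Dnmt3C KO replicate 1, dKO replicate 2 or any 1 of the Nrf1 cKO libraries was left out, nor with the replicate number as a block. Other settings called more features for Dnmt3C loss: 4 without dKO replicate 3, 15 without a filter on low counts and 10 at an adjusted p under 0.05. DESeq2 called 25 at an adjusted p under 0.01. Of the 12 TE subfamilies looked up, 10 were above 0 with Dnmt3C loss, with a median of 1.09. At an unadjusted p under 0.05, 8 were higher, against 1.9% of all features. IAPEz-int, from another retrovirus family, was at 0.98 ± 0.21 (SE, edgeR adjusted p = 0.32). L1Md_A, a young LINE1 subfamily, had 199, 360.1 and 318 CPM in dKO against 74.6 to 135 CPM in the other libraries. In Dnmt3C KO against WT, L1Md_A was at 0.22 ± 0.17 (SE) and the other LINE1 subfamilies looked up were below 0, at -0.71 to -0.20. In dKO against Nrf1 cKO all 12 subfamilies were above 0. The TE subfamilies that rose thus differed between these 2 comparisons. In 0 of the 10 interferon genes did the 6 Dnmt3C-deficient libraries lie apart from the other 5, against 0.212% of all features.

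The order of the libraries by TE transcripts was not their order by interferon genes. Dnmt3C KO replicate 1 had the highest MMERVK10C-int and IAPEz-int (402 and 1021 CPM), and the mean z-score of the 10 interferon genes there was -0.45, in place 7 of 11. The dKO replicate 1 library was second for MMERVK10C-int, and its mean z-score of -0.74 was the lowest of all. The highest score, 1.71, was that of WT replicate 2, with 81.8 CPM of MMERVK10C-int, and the next, 1.19, that of Dnmt3C KO replicate 3, with 240.5 CPM. The dKO libraries with the most L1Md_A, replicates 2 and 3, scored 0.09 and -0.01. Germ cell markers summed to 856 CPM in Dnmt3C KO replicate 1, the highest of the 11 libraries. They summed to 535 CPM in dKO replicate 1, the highest dKO library, 502 CPM in WT replicate 2 and 584 CPM in Dnmt3C KO replicate 3. The part of germ cell RNA in the order by TE transcripts was not tested. No correlation was computed, since the libraries fall into TE-low and TE-high genotypes.

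**Figure D4:**
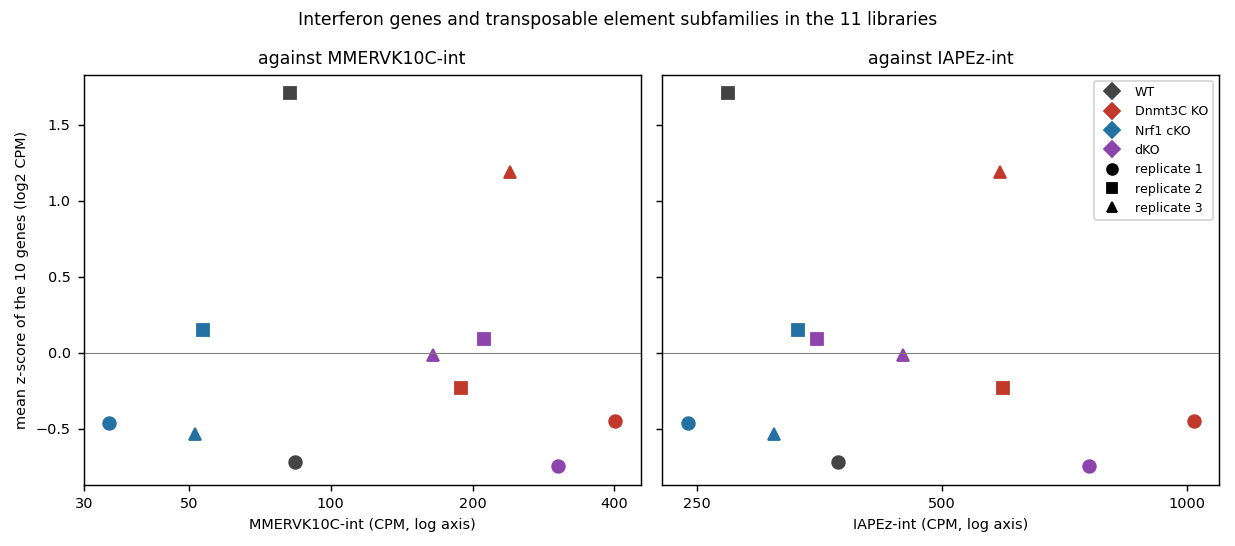
Mean z-score of log2 CPM over the 10 interferon genes (vertical axis) against CPM of MMERVK10C-int and of IAPEz-int (log axes) in the 11 libraries, coloured by genotype and shaped by replicate number. The 2 highest scores, 1.71 and 1.19, belong to a WT and a Dnmt3C KO library, and the library with the most of both subfamilies scores -0.45.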

How the data were processed

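Poly-A RNA of whole P5 testes had been sequenced by the authors with a stranded, paired-end protocol. They aligned the reads with STAR 2.7.3a to GRCm38 and deposited whole-number counts on genes and TE subfamilies, from TEtranscripts, in a table for each pair of genotypes. The log2 fold changes and p-values in these tables are the authors' own DESeq2 1.44.0 comparisons, as are the mean normalized counts and test statistics (scores) they deposited, and none was used. A deposited table of single TE copies, with no genes, was not used. The authors had left out 1 replicate of each genotype for low RNA quality. The 6 tables were joined over 11 libraries (33188 genes, 1088 TE subfamilies), and counts of a library were equal in every table that held it. The chi-square per degree of freedom of replicate pairs was 17.62 or more, so no library was a copy of another. Totals of 26063590 to 39365841 counts put 3 counts at 0.0762 to 0.115 CPM, and such limits cover counting error only.

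From the counts, CPM were scaled by TMM factors over the 11 libraries. The main test was edgeR 4.0.16 in R 4.3.3 (filterByExpr, TMM, quasi-likelihood F test), with Benjamini-Hochberg adjustment over all features tested and a threshold of 0.01, on the libraries of both genotypes of a pair or on all 11 libraries for Dnmt3C loss, Nrf1 deletion and their interaction. SE is the absolute log2 fold change over the square root of F. The fits were tested on simulated data with large known changes in well-covered features. This is no check for small changes or for genes with few reads. z-scores are of log2 CPM with a prior count of 1. Gene coordinates are from GENCODE M21, and promoters from RefSeq (GRCm38.p6), searched in Python 3.11.15.

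Named were, by rule, the 10 genes, other listed interferon genes past the threshold in any comparison (none), the 3 highest and 3 lowest of them for Dnmt3C loss, 6 pathway genes (1 of them is not reported here), the ligands, the 5 genes most like the 10, and 12 TE subfamilies, of which 3 are given with values. *B2m* and *H2-K1* were chosen after their values were seen. The genes and lists were chosen with earlier results of these data known. Alternatives were DESeq2 1.42.0 and its size factors, no filter on low counts, a threshold of 0.05, 1 fit of the 4 genotypes, library sizes from genes only, a replicate block and leaving out each library in turn.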

Additional observations from a re-analysis of the deposited data

How the results depend on the processing

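No member of the 10 passed an adjusted p of 0.01 in any comparison under any alternative run with edgeR or DESeq2. Log2 fold changes of single genes were less stable. When 1 library at a time was left out, the median of the 10 ran from -0.75 to 0.62 for Dnmt3C KO against WT, -1.03 to 0.22 for Nrf1 cKO against WT, -1.03 to 0.23 for dKO against WT and -0.52 to 0.75 for the interaction, in each case with the sign changed by leaving out WT replicate 2, and the cause was not tested. For Dnmt3C KO against WT, 5 of 10 were lower at an unadjusted p under 0.05 without WT replicate 1 (and 824 of 22851 features) and 2 without Dnmt3C KO replicate 3 (and 482 of 21336 features). Without WT replicate 1 all 10 were below 0 for dKO against WT, for Nrf1 cKO against WT and for Nrf1 deletion. For the interaction 9 were above 0. Fits without a WT library kept 1 WT library, whose spread was taken from the other libraries. With each library left out in turn, values for Dnmt3C KO against WT ran from -2.32 to 1.06 for *Ifit1* and -0.98 to 1.17 for *Ifit3*. They ran from -1.24 to 0.81 for *Isg15*, -0.14 to 0.72 for *Irf7* and -0.71 to 0.31 for *Oasl2*. The ranges were -0.53 to 0.52 for *Bst2*, -0.79 to 0.43 for *Ifih1*, -0.35 to 0.31 for *Ddx58* and -1.97 to 1.66 for *Zbp1*. For Dnmt3C loss over both backgrounds they ran from -0.65 to 0.70 for *Ifit1*, -0.65 to 0.045 for *Ifit3*, -0.45 to 0.32 for *Isg15*, -0.036 to 0.44 for *Irf7*, -0.075 to 0.30 for *Oasl2*, -0.18 to 0.17 for *Bst2*, -0.22 to 0.20 for *Ifih1* and -0.80 to 0.47 for *Zbp1*. For dKO against Nrf1 cKO they ran from -0.22 to 0.68 for *Isg15*, -0.16 to 0.51 for *Irf7*, -0.71 to 0.50 for *Rsad2*, -0.19 to 0.13 for *Bst2*, -0.049 to 0.39 for *Ifih1* and -0.22 to 0.13 for *Zbp1*, and *Ifit3* for dKO against WT ran from -2.15 to 0.0011. Without both WT replicate 2 and Dnmt3C KO replicate 3, chosen after seeing the data, Dnmt3C KO against WT turned to 0.51 for *Ifit3*, 0.04 for *Oasl2*, 0.44 for *Bst2*, 0.34 for *Ifih1*, 0.18 for *Ddx58* and 1.36 for *Zbp1*, and Dnmt3C loss to 0.28 for *Ifit1*, 0.13 for *Bst2*, 0.17 for *Ifih1* and 0.37 for *Zbp1*.

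Of the other interferon genes none was called in the comparisons as reported. Without a filter on low counts 6 were called as lower in Dnmt3C KO and 6 in Nrf1 cKO against WT, among 158 of 33284 and 138 of 32905 features called (*Psmb8*, *Psmb9*, *Iigp1*, *B2m*, *H2-K1* and *H2-D1* in both), and without WT replicate 1 the counts were 3 for Dnmt3C KO against WT (0 to 3 over the libraries left out; 17 of 22851 features called) and 1 for the 4 genotypes (0 to 1; 6 of 23841). With the replicate block they were 3 and 2 for Dnmt3C KO and Nrf1 cKO against WT, among 131 of 21664 and 87 of 21296 features, the call of MMERVK10C-int for Dnmt3C loss was lost (0 features called), and of the 10 genes 3 were lower at an unadjusted p under 0.05 for Dnmt3C KO against WT (774 of 21664 features), where all 10 were below 0 with a median of -0.58. The block turned *Irf7* to -0.12 (Dnmt3C KO against WT), *Zbp1* to -0.015 (dKO against Nrf1 cKO) and *Bst2* to 0.0060 (Dnmt3C loss). Deviations from the genotype means had r of -0.23 to 0.22 in 15 same-numbered pairs, with 3 over 0.1. In the 30 pairs with other numbers r was -0.25 to 0.30. Deviations of the 2 WT libraries mirror each other, so these values cannot decide whether litters or batches paired the samples. The replicate numbers are those of the sample titles. For the third libraries of Dnmt3C KO and dKO the column headers give other numbers, so the block and 3 of the 15 pairs rest on the titles alone. With 2 or 3 libraries a group and few reads for *Ifit1* and *Zbp1*, intervals were wide.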
